A study of Mus musculus with 8 samples.

Results

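10 genes of the actin cytoskeleton were followed in RAW264.7, a line of macrophage-like cells from BALB/c mice, during exposure to either of 2 bacteria. They were Actb, Actg1, Pfn1, Cfl1, Coro1a, Tpm3, Tpm4, Myh9, Flna and Vcl, 10 of the 27376 gene names on the array, and every spot that carries one of these names and is not a control was used. That gave 28 spots and 19 probes of 60 bases. The treated groups were cells given Lactobacillus acidophilus MTCC-10307 and cells given Bacillus clausii MTCC-8326, each at 100 bacteria per cell for 1, 2, 4 or 6 h, and untreated cells of the same time were the control. Each of the 8 arrays carried treated RNA in red (Cy5) and untreated RNA in green (Cy3), pooled in equal parts from 3 cultures, so that every bacterium and time had 1 array and no replicate.

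Actin monomers assemble into filaments that push the membrane forward, form the phagocytic cup around a bacterium and anchor the cell to its surface. Profilin feeds monomers to growing ends, cofilin severs old filaments, coronin works with both the branching Arp2/3 complex and cofilin, tropomyosins coat filaments, non-muscle myosin pulls on them, filamin links them crosswise and vinculin ties them to adhesions. In macrophages these proteins serve phagocytosis, spreading and migration.

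On all 8 arrays in both channels, 15 of the 19 probes were well above background. Of the other 4, the Flna probe of a separate transcript record (from base 1339) was above background nowhere and was not tested, which left 18. A second Myh9 probe (from base 2337) was seen in 3 treated and 0 untreated channels, a Flna probe (from base 3236) in 8 treated and 7 untreated channels, and a Tpm3 probe (from base 739) in 7 treated and 8 untreated channels. Probes of the same gene are told apart below by the base of the transcript at which they start. Over all probes 39.6% to 51.5% were well above background in the treated channel and 42.2% to 47.4% in the untreated channel, and no spot was saturated. Of 10 macrophage marker genes, 8 were detected in both channels of all 8 arrays, while Itgam was detected on some arrays and Mertk on none. None of 7 fibroblast, 6 lymphocyte and 4 neutrophil markers reached that level, although some were seen on part of the arrays (Cd3e on 7 in each channel), and of 7 muscle markers the smooth muscle actin gene Acta2 did.

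Values are log2 ratios of treated to untreated signal after background correction and loess normalization. A value of 0 thus means the typical probe of that brightness on that array, and since equal amounts of RNA were labelled, fewer cells and less RNA per cell cannot be told apart. Treated RNA was red on every array, so a constant dye effect of a probe cannot be told apart from a constant response in the mean ratio to a bacterium, but it cancels in differences between bacteria or times. The 4 L. acidophilus arrays lay on one slide and the 4 B. clausii arrays on another, so slide and bacterium cannot be told apart. The position on the slide followed the time on both slides, so position and time cannot be told apart either. The limma p-values rest on how far the difference between the bacteria varied over the 4 times (3 residual degrees of freedom). Those of the interaction rest on the spread between the 2 times of a phase within a bacterium (4 residual degrees of freedom). Limma added 6.27 and 6.67 prior degrees of freedom to these, from the spread over all tested probes. None of these p-values measures scatter between cultures.

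The sequences of 4 probes are shown because probes of Coro1a, Cfl1 and Actg1 gave unlike results for the same gene. They are both Coro1a probes, the upstream Cfl1 probe and the upstream Actg1 probe. Coordinates are of mm9 (NCBI37), per the file headers.
Coro1a probe from base 967 (chr7:133844338-133844397, minus strand): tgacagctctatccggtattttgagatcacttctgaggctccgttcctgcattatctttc
Coro1a probe from base 1400 (chr7:133843425-133843484, minus strand): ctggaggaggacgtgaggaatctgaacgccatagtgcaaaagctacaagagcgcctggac
Cfl1 probe from base 537 (chr19:5493385-5493444, plus strand): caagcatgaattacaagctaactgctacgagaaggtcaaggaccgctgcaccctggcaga
Actg1 probe from base 662 (chr11:120208371-120208430, minus strand): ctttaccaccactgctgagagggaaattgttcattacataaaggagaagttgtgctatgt

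The promoters of Actg1 and Vcl are shown because each holds a CArG box, the DNA element of serum response factor, which is known to drive many actin genes. RefSeq promoters of GRCm38.p6 matched 9 of the 10 genes, Actb having no entry. In the 250 bases before the start site, 2 of those 9 genes had a CArG box (CC and GG around a run of A and T, which reads as a CArG box on both strands). Counted by promoter, 2 of the 11 promoters of these genes had one, as did 1.47% of the 32851 promoters in the table. The capitals mark the box, which begins 90 bases before the start site in Actg1 and 227 bases before it in Vcl.
Actg1 (chr11:120348496-120348745, minus strand): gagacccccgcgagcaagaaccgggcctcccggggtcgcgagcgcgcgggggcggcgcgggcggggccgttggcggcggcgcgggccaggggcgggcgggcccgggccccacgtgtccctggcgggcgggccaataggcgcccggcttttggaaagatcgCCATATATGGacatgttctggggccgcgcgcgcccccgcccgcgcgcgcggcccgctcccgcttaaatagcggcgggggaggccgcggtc
Vcl (chr14:20929148-20929397, plus strand): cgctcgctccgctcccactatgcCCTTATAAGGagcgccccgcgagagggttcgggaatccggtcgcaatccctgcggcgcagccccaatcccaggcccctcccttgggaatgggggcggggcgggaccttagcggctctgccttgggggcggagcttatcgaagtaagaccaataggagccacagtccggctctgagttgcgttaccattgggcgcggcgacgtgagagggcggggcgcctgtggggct

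The 10 genes changed little in size. None of the 18 probes reached a 2-fold ratio on any array, which 1.56% of all 21274 tested probes did, and the largest ratio was 0.71 (Actg1 at 6 h with B. clausii). At an adjusted p under 0.05 the mean response to L. acidophilus was higher than 0 for 2 probes and lower for 5, and the mean response to B. clausii higher for 7 and lower for 3. Such calls were common on the whole array. With L. acidophilus 41% of all probes were called, 21.1% higher and 19.9% lower, and with B. clausii 44.2%, of which 20.3 points were higher and 23.9 points lower. The median of the 18 mean ratios was -0.01 for the L. acidophilus arrays (0 over all probes) and 0.09 for the B. clausii arrays (-0.01 over all probes).

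**Figure D1:**
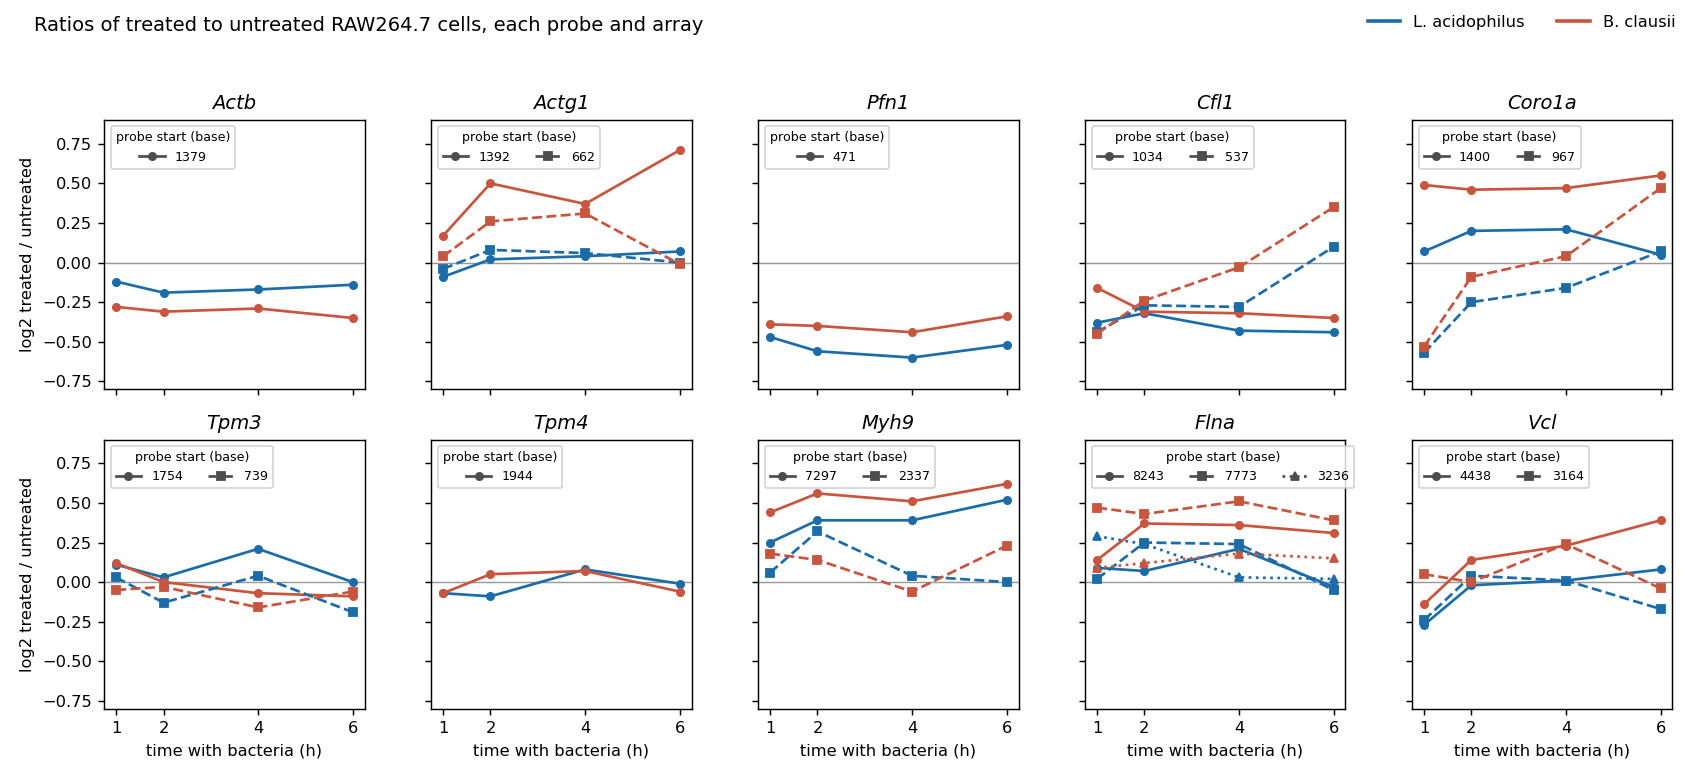
Log2 ratio of treated to untreated cells (vertical axis) against time in hours (horizontal axis) for each of the 18 tested probes, with L. acidophilus in blue and B. clausii in red and 1 point per array; probes of a gene differ in marker and line style. Pfn1 and Actb lie below 0 on all 8 arrays, the Myh9 probe from base 7297 lies above 0 on all 8, and the upstream probes of Cfl1 (537) and Coro1a (967) climb with time while the downstream probes of the same genes stay level.

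With B. clausii the mean loess-normalized ratios of Actb and Actg1 lay on opposite sides of 0. Actb, the cytoplasmic beta-actin gene often used as a loading control, was measured by 1 probe in 10 spots. Its treated log2 signals were 7.16, 7.22, 7.31 and 7.40 at 1, 2, 4 and 6 h with L. acidophilus, against 7.28, 7.41, 7.47 and 7.54 in untreated cells. With B. clausii they were 7.22, 7.12, 7.15 and 7.05, against 7.50, 7.43, 7.44 and 7.40 in untreated cells. The ratio was therefore below 0 on all 8 arrays, between -0.19 and -0.12 with L. acidophilus and between -0.35 and -0.28 with B. clausii, and the sets do not overlap. The spots of an array that were used, 8 to 10 of them, had an SD of 0.0895 to 0.149, and at least 8 of them lay below 0 on every array. The mean response was -0.15 ± 0.04 (SE of the fit, 4 arrays; limma adjusted p = 0.0134) with L. acidophilus and -0.31 ± 0.04 (adjusted p = 0.000354) with B. clausii. The Actb call with L. acidophilus was lost without its 1, 2 or 4 h array (adjusted p of 0.0583, 0.0997 and 0.107). The Actb probe was dim, since its foreground was 84.6 to 137 in treated and 171 to 218 in untreated channels, over local backgrounds of 32.3 to 35.9 and 22.5 to 27.8. With the processed signals of the scanner software the ratios were -0.30 to -0.20 with L. acidophilus and -0.67 to -0.45 with B. clausii. The Actb ratio was level over time within each bacterium, and such a mean response cannot be told apart from a dye effect of the probe.

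Actg1, the gamma-actin gene, was higher with B. clausii. At its probe from base 1392 the treated log2 signals were 13.38, 13.39, 13.34 and 13.30 at the 4 times with L. acidophilus, against 13.47, 13.37, 13.30 and 13.24 in untreated cells. The B. clausii arrays gave 13.71, 13.85, 13.56 and 14.07, against 13.54, 13.36, 13.19 and 13.36 in untreated cells. The L. acidophilus ratios of -0.09, 0.02, 0.04 and 0.07 all lay below the B. clausii ratios of 0.17, 0.50, 0.37 and 0.71. The mean response was 0.01 ± 0.05 with L. acidophilus (limma adjusted p = 0.895) and 0.44 ± 0.05 with B. clausii (adjusted p = 0.000226), a value that 2.25% of all probes exceeded.

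The second Actg1 probe, from base 662, lay nearer to 0. Its ratios were -0.04, 0.08, 0.06 and 0 on the L. acidophilus arrays and 0.04, 0.26, 0.31 and -0.01 on the B. clausii arrays, so that at 6 h with B. clausii the downstream probe stood at 0.71 and the upstream one at -0.01. The mean response to B. clausii still passed the test at 0.15 ± 0.05 (limma adjusted p = 0.0252), a call lost without the 1, 2 or 4 h B. clausii array (adjusted p of 0.0649, 0.166 and 0.223). The signal of the upstream probe also moved with time in both channels alike. On the L. acidophilus arrays its processed signal was 131, 682, 1030 and 786 in treated cells at 1, 2, 4 and 6 h, against 140, 641, 955 and 735 in untreated cells. On the B. clausii arrays it was 274, 918, 1170 and 1040, against 284, 761, 949 and 984 in untreated cells. The downstream probe showed no such step, with 11600 to 18400 in treated and 11300 to 15300 in untreated channels. A signal at 1 h under 1/2 of every later one, in both channels of both sets of arrays, was found for 153 of 21274 probes (0.719%), and this Actg1 probe was the only one among the 18; it was picked out after its values had been seen. Coding sequences of actin genes are closely alike, and cross-hybridisation of this probe was not tested.

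**Figure D2:**
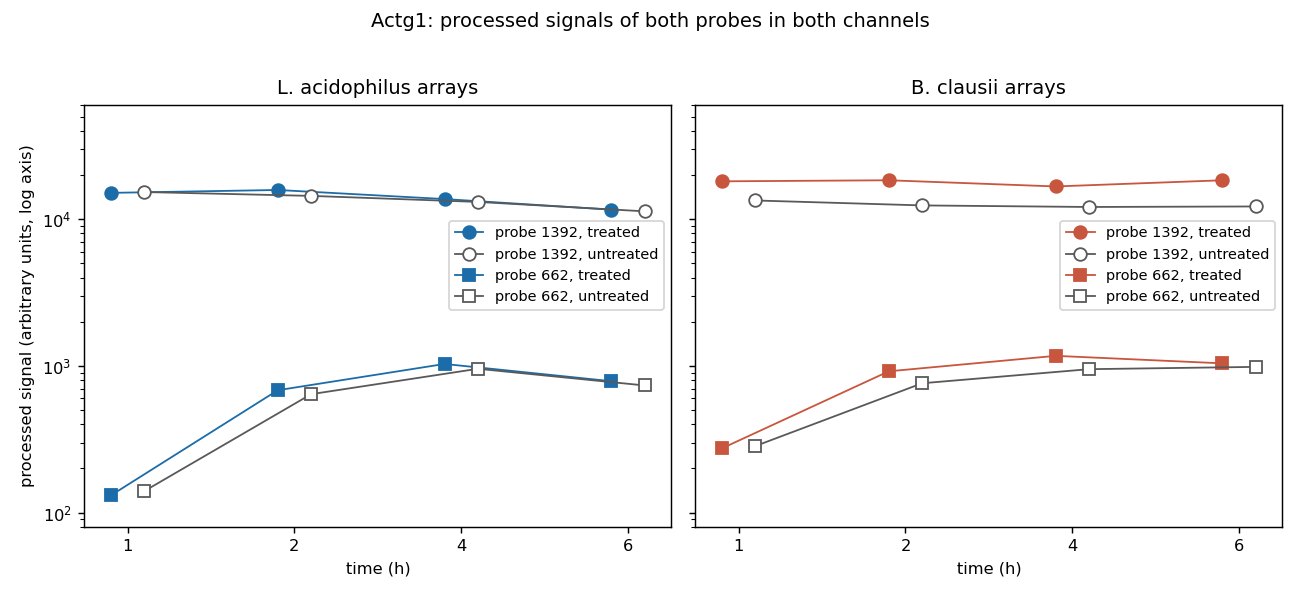
Processed signal of both Actg1 probes (vertical log axis, arbitrary units) at each time (horizontal axis, hours), L. acidophilus arrays on the left and B. clausii arrays on the right, treated cells filled and untreated cells open, 1 array per time. Signals of the probe from base 662 are lowest at 1 h in both channels (131 and 140 on the L. acidophilus array), while the probe from base 1392 stays between 11300 and 18400; levels of different probes are not comparable.

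Pfn1, which encodes profilin, was lower in treated cells throughout. Its treated log2 signals were 11.50, 11.36, 11.38 and 11.72 with L. acidophilus, against 11.97, 11.92, 11.99 and 12.24 in untreated cells. Under B. clausii the treated signals were 11.56, 11.47, 11.39 and 11.76, against 11.95, 11.87, 11.83 and 12.09 in untreated cells. On each set of 4 arrays the highest of these normalized treated signals lay below the lowest untreated one. The ratios kept within a narrow band at all 4 times, -0.60 to -0.47 with L. acidophilus and -0.44 to -0.34 with B. clausii. The mean response was -0.54 ± 0.04 (limma adjusted p = 5.83e-05) with L. acidophilus, and 0.169% of all probes lay lower. With B. clausii it was -0.39 ± 0.04 (adjusted p = 0.000105), with 3.28% of all probes lower. In the scanner's processed signals the Pfn1 ratios were -0.52 to -0.42 with L. acidophilus. With B. clausii they were -0.36, -0.28 and -0.28 at 1, 2 and 4 h but -0.05 at 6 h. There the treated signal of 6170 stood against 6390 in untreated cells. A normalized response this level over time cannot be told apart from a dye effect of the probe.

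Cfl1, the cofilin gene, gave lower values at both probes on most arrays but with different courses. At the downstream probe (from base 1034) the treated log2 signals were 14.66, 14.46, 14.36 and 14.23 with L. acidophilus, against 15.05, 14.78, 14.80 and 14.67 in untreated cells. With B. clausii they were 14.71, 14.50, 14.52 and 14.57, against 14.87, 14.81, 14.84 and 14.91 in untreated cells. Treated signals were thus lower on every array, and the mean response was -0.40 ± 0.04 with L. acidophilus (limma adjusted p = 0.000271) and -0.28 ± 0.04 with B. clausii (adjusted p = 0.000776). Here too a dye effect of the probe cannot be told apart from the mean response.

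The upstream Cfl1 probe (from base 537) began low and ended above 0. Its L. acidophilus ratios were -0.44, -0.27, -0.28 and 0.10 over the 4 times, and its B. clausii ratios -0.45, -0.24, -0.03 and 0.35. Only the 6 h arrays were above 0, in both sets; in the scanner's processed signals the Cfl1 ratio at 6 h was -0.10 with L. acidophilus and 0.15 with B. clausii. Its mean response of -0.22 ± 0.05 passed the test with L. acidophilus (limma adjusted p = 0.00601), while that with B. clausii was -0.09 ± 0.05 (adjusted p = 0.139). The Cfl1 call was lost without the 4 h L. acidophilus array (-0.18, adjusted p = 0.0772) and without both 1 h arrays (-0.15, adjusted p = 0.0521).

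Coro1a, the coronin of blood cells, repeated this picture. At its upstream probe (from base 967) the treated log2 signals were 11.87, 12.08, 12.12 and 12.28 with L. acidophilus, against 12.45, 12.33, 12.28 and 12.21 in untreated cells. The B. clausii arrays gave 11.86, 12.19, 12.32 and 12.54, against 12.39, 12.28, 12.29 and 12.07 in untreated cells. These normalized treated signals were lowest at 1 h and highest at 6 h in both sets, and the untreated ones were highest at 1 h and lowest at 6 h in both. In the scanner's processed signals the L. acidophilus treated channel ran the other way, with 6060, 5550, 5350 and 4730 in treated cells, against 8400, 6730, 6280 and 5070 in untreated cells. With B. clausii the processed signals of this Coro1a probe were 5250, 5670, 6370 and 7670, against 5850, 5910, 6300 and 6260 in untreated cells. The processed ratio climbed with time in both sets, at -0.47 to -0.10 with L. acidophilus and -0.16 to 0.29 with B. clausii. The ratios were accordingly -0.57, -0.25, -0.16 and 0.07 on the L. acidophilus arrays and -0.53, -0.09, 0.04 and 0.47 on the B. clausii arrays. Across the 8 arrays these ratios and those of the upstream Cfl1 probe had a Pearson r of 0.962, which describes arrays that share labelling, slides and times.

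At the downstream Coro1a probe (from base 1400) the ratio did not climb with time. Treated log2 signals were 13.59, 13.95, 14.17 and 13.98 with L. acidophilus, against 13.52, 13.75, 13.96 and 13.93 in untreated cells. On B. clausii arrays the values were 14.02, 14.13, 14.31 and 14.51, against 13.53, 13.68, 13.83 and 13.97 in untreated cells. All 8 ratios were above 0, at 0.05 to 0.21 with L. acidophilus and 0.46 to 0.55 with B. clausii. The mean response to L. acidophilus was 0.13 ± 0.05 (limma adjusted p = 0.0436), a call lost under 14 of 21 other settings, among them leaving out the 1, 2 or 4 h L. acidophilus array (adjusted p of 0.0867, 0.283 and 0.281) or the 2 or 4 h B. clausii array (0.0618 and 0.0634). That to B. clausii was 0.49 ± 0.05 (adjusted p = 6.13e-05) and was exceeded by 1.5% of all probes. The direction of the Coro1a response to L. acidophilus therefore depended on the probe, higher at base 1400 and lower at base 967 (-0.23 ± 0.05, adjusted p = 0.0059; -0.12 and 0.119 without both 1 h arrays).

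Set against the same gene's downstream probe, the upstream Coro1a probe was lower by 0.64 at 1 h with L. acidophilus and by 1.02 at 1 h with B. clausii, and the difference of ratios was 0.02 and -0.08 at 6 h. For Cfl1 the upstream minus downstream difference of ratios was -0.05 and -0.29 at 1 h and 0.55 and 0.69 at 6 h, in the same order of bacteria. Over 3116 transcripts with probes at least 300 bases apart the median of this difference was -0.09 and -0.11 at 1 h. Its quartiles were -0.26 to 0.07 and -0.34 to 0.12. At 6 h the median was -0.04 and -0.08 (quartiles -0.25 to 0.16 and -0.32 to 0.18). Other members did not climb in both sets. The Vcl difference was 0.03 and 0.18 at 1 h and -0.24 and -0.42 at 6 h. That of Actg1 was 0.04 and -0.13, then -0.07 and -0.72. For Tpm3 it was -0.08 and -0.17, then -0.19 and 0.03. For Flna (bases 3236 and 8243) it was 0.21 and -0.06, then 0.05 and -0.16. The cause of the unlike courses was not tested.

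With the loess-normalized ratios the tropomyosin genes Tpm3 and Tpm4 gave no call. Tpm4 ratios lay between -0.09 and 0.08 on all 8 arrays, with mean responses of -0.03 ± 0.04 (95% interval -0.12 to 0.07) to L. acidophilus and 0 ± 0.04 (-0.10 to 0.09) to B. clausii. The Tpm3 probe from base 1754 lay between 0 and 0.21 with L. acidophilus and between -0.09 and 0.12 with B. clausii. In the scanner's processed signals its ratios were -0.18 to -0.07 with L. acidophilus and -0.25 to -0.08 with B. clausii. Its mean response to B. clausii was then called, and also with series matrix values and with median centring. Median centring gave calls with B. clausii for Tpm4 and for Tpm3 from base 739 too. The Tpm3 probe from base 739, close to background, lay between -0.19 and 0.04 over both. With the loess-normalized ratios no 95% interval of a Tpm3 or Tpm4 mean response reached beyond 0.19 in size. The other tropomyosin genes of the 4 measured, Tpm1 and Tpm2, fell with B. clausii (-0.22 ± 0.05, limma adjusted p = 0.00691, and -0.16 ± 0.05, adjusted p = 0.03) and stood at -0.13 each with L. acidophilus (adjusted p = 0.0625 and 0.0624).

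Myh9, the heavy chain of non-muscle myosin IIA, was higher with both bacteria. At the probe from base 7297 treated log2 signals were 12.19, 13.10, 13.10 and 13.28 with L. acidophilus, against 11.95, 12.71, 12.71 and 12.76 in untreated cells. With B. clausii they were 12.78, 13.15, 13.20 and 13.31, against 12.34, 12.59, 12.70 and 12.69 in untreated cells. Both channels were lowest at 1 h in both sets, and the ratio was above 0 on all 8 arrays, at 0.25, 0.39, 0.39 and 0.52 on the L. acidophilus arrays and 0.44, 0.56, 0.51 and 0.62 on the B. clausii arrays. The mean response was 0.39 ± 0.04 (limma adjusted p = 0.000221) with L. acidophilus and 0.53 ± 0.04 (adjusted p = 2.09e-05) with B. clausii, exceeded by 2.26% and 1.19% of all probes. The late minus early difference of 0.10 ± 0.06 was not called (limma adjusted p = 0.227). These mean responses cannot be told apart from a dye effect of the probe. The second Myh9 probe, of another transcript record, was not well above background in any untreated channel. Its measured log2 means were 6.49 treated and 6.37 untreated, with 3 of the 8 treated channels well above background. It passed no test in the main setting and was called with L. acidophilus under 3 other settings.

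Flna, which encodes the crosslinker filamin A, was higher with B. clausii at its 2 probes nearest the end of the transcript. At the probe from base 7773 the treated log2 signals with L. acidophilus were 9.44, 9.65, 9.63 and 9.40, against 9.43, 9.39, 9.40 and 9.45 in untreated cells. Under B. clausii the treated signals were 9.64, 9.58, 9.62 and 9.76, against 9.17, 9.15, 9.12 and 9.36 in untreated cells. Treated and untreated signals overlapped with L. acidophilus, while every treated B. clausii signal lay above every untreated one. The mean response was 0.11 ± 0.05 with L. acidophilus (limma adjusted p = 0.0851) and 0.45 ± 0.05 with B. clausii (adjusted p = 0.000124). The probe from base 8243 had ratios of -0.03 to 0.21 with L. acidophilus, and of 0.14 to 0.37 with B. clausii, where its mean was 0.30 ± 0.05 (adjusted p = 0.00102). At the dimmer probe from base 3236 ratios were above 0 on all 8 arrays (0.02 to 0.29) but passed no test in the main setting. This probe was called with L. acidophilus under 3 other settings and with B. clausii under 5.

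Vcl, the vinculin gene, began below 0 and ended above it with both bacteria at the probe from base 4438. Its ratios were -0.27, -0.02, 0.01 and 0.08 on the L. acidophilus arrays and -0.14, 0.14, 0.23 and 0.39 on the B. clausii arrays. The treated log2 signals with B. clausii were 9.32, 9.57, 9.66 and 9.91, against 9.46, 9.43, 9.43 and 9.52 in untreated cells, and it was the treated channel that climbed. With L. acidophilus they were 9.25, 9.34, 9.28 and 9.53, against 9.53, 9.35, 9.27 and 9.46 in untreated cells, so that up to 4 h the untreated signal became lower by more than the treated one moved. In the scanner's processed signals the Vcl ratio stayed below 0 with L. acidophilus, at -0.23 to -0.10. The mean response to L. acidophilus was -0.05 ± 0.04 (limma adjusted p = 0.363) and that to B. clausii 0.16 ± 0.04 (adjusted p = 0.0143), a call lost under 7 of 21 other settings and reversed under 1. Among these were the fits without the 2, 4 or 6 h B. clausii array (adjusted p of 0.0629, 0.0975 and 0.0847). The dim probe from base 3164 varied between -0.24 and 0.24 with no shared course.

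**Figure D3:**
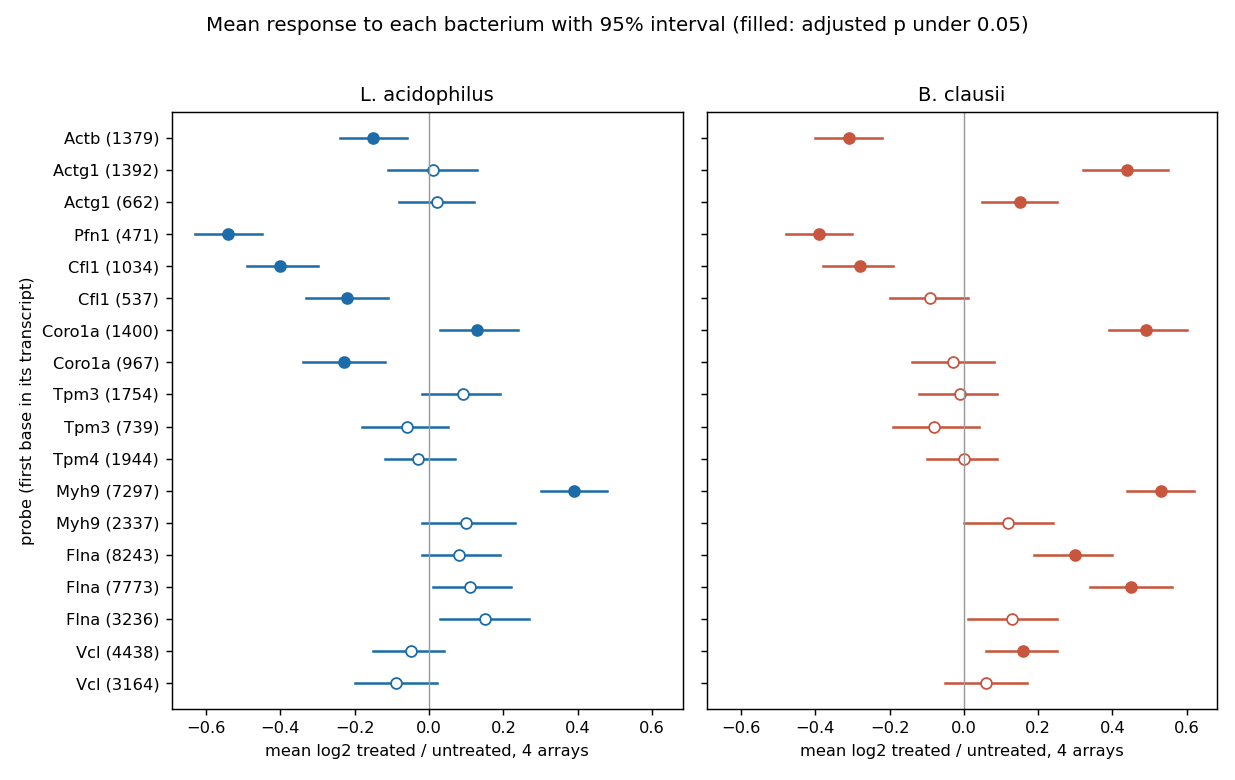
Mean log2 ratio over the 4 arrays of a bacterium (horizontal axis) with its 95% interval from the limma fit for each of the 18 probes (vertical axis; the number is the first base in the transcript), L. acidophilus on the left and B. clausii on the right; filled points passed an adjusted p under 0.05. Pfn1 (-0.54 and -0.39) and Myh9 from base 7297 (0.39 and 0.53) stand apart from 0 in both panels, and the Actg1, Coro1a and Flna probes at 0.44, 0.49 and 0.45 in the B. clausii panel.

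These directions hold relative to probes of like brightness. With each array centred on its median in place of loess, the median of all probes moved by -0.41 on the 1 h B. clausii array and by -0.24 to -0.07 on the other 7. The calls with B. clausii then split into 0 higher and 10 lower probes (7 and 3 with loess) and those with L. acidophilus into 1 higher and 6 lower (2 and 5 with loess). Pfn1, the downstream Cfl1 probe and Actb stayed lower than untreated with both bacteria under this centring, and Myh9 stayed above 0 (0.11 with B. clausii, not called). The probes of Actg1 from base 1392 (0.03), Coro1a from base 1400 (0.11) and Flna from base 7773 (0.02) were no longer called with B. clausii, and Flna from base 8243 (-0.08), Vcl from base 4438 (-0.27) and Actg1 from base 662 (-0.25) turned below 0 with B. clausii.

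Between the bacteria, 3 probes differed by the test, all lower with L. acidophilus. The difference of L. acidophilus minus B. clausii was -0.43 ± 0.07 for Actg1 from base 1392 (limma adjusted p = 0.0343), -0.36 ± 0.06 for Coro1a from base 1400 (adjusted p = 0.0387) and -0.34 ± 0.07 for Flna from base 7773 (adjusted p = 0.0498). Of all probes 1.44% were called, 0.973% higher and 0.47% lower with L. acidophilus, and the median difference was -0.14 over the 18 probes and 0.02 over all. The 4 L. acidophilus and 4 B. clausii ratios did not overlap for 5 of the 18 probes, which held for 7.57% of all. Lower with L. acidophilus (3.1% of all) were these 3 and Pfn1, and higher (4.47% of all) was Actb, whose difference was 0.15 ± 0.06 (adjusted p = 0.162).

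All 3 calls between the bacteria sat close to the threshold. Leaving out any 1 array ended them (adjusted p of 0.0556 to 0.168 for Actg1, 0.1 to 0.183 for Coro1a and 0.0973 to 0.207 for Flna), and with median centring the differences shrank to -0.11, -0.04 and -0.09. Leaving out either array of a time gave the same difference, so there was only 1 separate check per time. Whether arrays of the same time shared their untreated RNA is not given in the labels, so the responses to the 2 bacteria are set side by side and no agreement between them is counted.

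**Figure D4:**
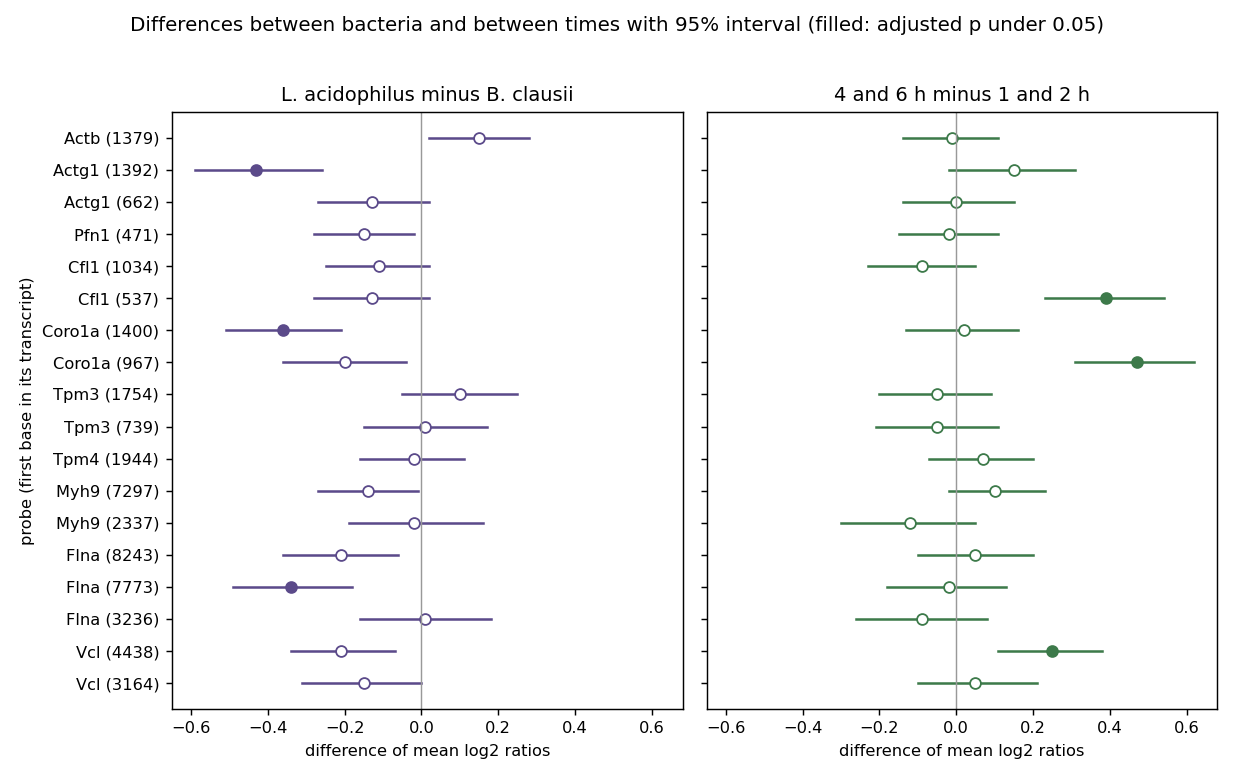
Difference of mean log2 ratios (horizontal axis) with its 95% interval from the limma fit for each of the 18 probes (vertical axis), L. acidophilus minus B. clausii on the left and 4 and 6 h minus 1 and 2 h on the right; filled points passed an adjusted p under 0.05. On the left the filled points are Actg1 (-0.43), Coro1a (-0.36) and Flna (-0.34), and on the right Coro1a from base 967 (0.47), Cfl1 from base 537 (0.39) and Vcl from base 4438 (0.25).

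Between the times, the mean of 4 and 6 h exceeded that of 1 and 2 h for 3 of the 18 probes by the test. Coro1a from base 967 averaged 0.10 late and -0.36 early, a difference of 0.47 ± 0.07 (limma adjusted p = 0.00232) that 1.39% of all probes exceeded. Cfl1 from base 537 averaged 0.03 late and -0.35 early (0.39 ± 0.07, adjusted p = 0.00466), and Vcl from base 4438 averaged 0.18 late and -0.07 early (0.25 ± 0.06, adjusted p = 0.0174). Among all probes 23.1% were called, 11.7% higher late and 11.3% lower late, so the 18 probes were called no more often than the array as a whole. Without both 1 h arrays the differences were 0.28 (adjusted p = 0.0762) for Coro1a, 0.29 (0.0633) for Cfl1 and 0.11 (0.387) for Vcl, and these 3 calls were lost. With the scanner's processed signals they were lost too, at 0.24 (adjusted p = 0.0731) for Coro1a, 0.20 (0.122) for Cfl1 and 0.11 (0.234) for Vcl. With local backgrounds as deposited the Cfl1 and Vcl calls were lost (0.30, adjusted p = 0.115, and 0.17, adjusted p = 0.246). The Vcl call was also lost without the 2 or 4 h L. acidophilus array or any 1 B. clausii array (differences of 0.21 to 0.26, adjusted p of 0.0507 to 0.0816) and with a normexp offset of 0 (0.26, adjusted p = 0.0557). Actb, Pfn1 and the downstream Coro1a probe differed by -0.02 to 0.02 between the times. The position on the slide differed along with the time, and its part was not tested.

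The interaction test called no probe of the 10 genes as changing with time differently for the 2 bacteria (0 called, 0 at an unadjusted p under 0.05). Of all probes 0% were called, with 265 of 21274 at an unadjusted p under 0.05. The 95% intervals were wide, such as -0.29 to 0.34 for Actb and -0.78 to 0.38 for the upstream Coro1a probe. Changes between the 2 times of a phase count as error in this test, so equal courses were not shown.

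The genes whose 8 ratios most resembled those of Actb, Actg1 and Vcl were sought among 12936 others. For Actb they were Efna4 and Frg1 (Pearson r of 0.975 each) and Coa6 (0.966), for Actg1 Fto (0.975), Tgfb1 (0.969) and Tpi1 (0.962), and for Vcl Nek6 (0.99) and Eif4e2 (0.989). These r are the highest of 12936 over 8 points and describe the course, not the size of a ratio: Efna4 lay at 0.12 to 0.17 with L. acidophilus while Actb was below 0.

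Around these 10 genes, 159 others of the cytoskeleton and its control were measured, each by its brightest probe. With L. acidophilus 30 were higher and 35 lower (40.9% called, against 41.9% of all 14805 genes), and with B. clausii 47 were higher and 45 lower (57.9%, against 44.3%). With each array centred on its median, calls over all probes were 1827 higher and 6818 lower with L. acidophilus (4496 and 4233 with loess). With B. clausii they were 1193 higher and 12623 lower (4324 and 5085 with loess). The 159 genes were not counted under that centring.

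The Arp2/3 complex, which starts branches, had 1 of 9 subunits higher and 3 lower with L. acidophilus and 1 higher and 5 lower with B. clausii; the higher one was Arpc1b both times (0.46 and 0.41). Among genes of nucleation and elongation 3 of 23 were higher and 6 lower with L. acidophilus and 8 higher and 7 lower with B. clausii, and Brk1, a subunit of the WAVE complex, was low in both (-0.48 and -0.56). Of 19 adhesion genes, 2 were higher and 4 lower with L. acidophilus and 7 higher and 4 lower with B. clausii, where the integrin gene Itgb2 rose (0.62) and Lims1 fell (-0.81). Crosslinkers, Flna included, counted 5 of 21 higher and 3 lower with L. acidophilus and 9 higher and 4 lower with B. clausii. Of 20 myosin genes 7 were higher and 1 lower with L. acidophilus and 5 higher and 4 lower with B. clausii, of 12 capping and severing genes 4 and 1 and then 6 and 2, and of 13 monomer-binding genes 2 and 4 and then 1 and 5. Over all genes 23.6% were higher and 18.3% lower with L. acidophilus, and 23.2% higher and 21.2% lower with B. clausii. Of 6 measured genes for serum response factor and associated factors, 2 were higher and 0 lower with L. acidophilus, and 1 higher and 1 lower with B. clausii. Srf, the gene of the factor that binds CArG boxes, was higher with both bacteria (0.32 ± 0.05, limma adjusted p = 0.000893, and 0.42 ± 0.05, adjusted p = 0.000129). The lower one with B. clausii was Mrtfb (-0.15 ± 0.05, adjusted p = 0.0265). A link between Srf and the CArG boxes of Actg1 and Vcl was not tested.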

How the data were processed

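Per the file headers, the deposited files of the 8 two-colour arrays give each spot's mean intensity and its local background median, plus processed intensities from Feature Extraction 10.7.3.1 (10.5.1.1 per the submitters' processing notes). The deposited log10 ratios are of red over green processed signal, per the file headers, and the authors' series table holds them rounded. Deposited flags of 0 or 1 gave detection and outliers.

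Backgrounds flagged as outliers and above 3 times the array's median were set to that median. Ratios were corrected with normexp (offset 50) and normalized by loess in limma 3.58.1 (R 4.3.3), flagged spots left out (0.473% to 0.89%) and repeated spots averaged. Probes well above background in either channel on at least 2 arrays were kept (21274 of 41174). Limma (lmFit, eBayes, Benjamini-Hochberg over all kept probes) fitted bacterium and time, and 4 cells of bacterium and phase for the interaction. Scripts were tested on simulated data. All member probes were eligible to be named, with the top called genes of each list in each direction and the genes most alike by Pearson r. A gene list, a gene most alike and a probe sequence are not reported here. Members and lists were chosen with earlier results of these data known.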

Additional observations from a re-analysis of the deposited data

Results flagged for a closer look

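3 results stood out because the response to L. acidophilus differed from that to B. clausii in the limma contrast of the bacteria. The log2 difference of L. acidophilus minus B. clausii was -0.43 for Actg1 (probe from base 1392), -0.36 for Coro1a (probe from base 1400) and -0.34 for Flna (probe from base 7773). At each of the 4 times the L. acidophilus ratio of all 3 probes was the lower one. The slide differed along with the bacterium, and its part was not tested.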

How the results depend on the processing

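Of 23 called results on the 10 genes, 6 kept their call under each of the settings that gave them a value: Pfn1, Cfl1 from base 1034 and Myh9 from base 7297 with L. acidophilus, and Pfn1, Actb and Cfl1 from base 1034 with B. clausii. The 7 calls with L. acidophilus became 4 with no time term, with local backgrounds as deposited and without both 1 h arrays (the last 2 settings chosen after seeing the data), and 4 to 8 when 1 array was left out. The 10 calls with B. clausii became 8 to 11 when 1 array was left out; with median centring Flna from base 8243 reversed to -0.08, Vcl from base 4438 to -0.27 and Actg1 from base 662 to -0.25. The 3 calls between the bacteria became 0 with processed signals, series matrix values, normexp offset 0, no filter on dim probes, no time term, deposited backgrounds, no 1 h arrays or any 1 array left out, and 1 with no background subtraction or the brightest probe per gene; with median centring the 3 calls were of other probes and higher with L. acidophilus. The 3 calls between the times became 0 with processed signals, series matrix values or no 1 h arrays, 1 with deposited backgrounds or the brightest probe per gene, 6 with median centring, and 2 to 3 when 1 array was left out. Over all probes the counts ran from 2696 to 9718 for L. acidophilus (8729 as reported), from 4687 to 13816 for B. clausii (9409), from 0 to 6793 between the bacteria (307) and from 1477 to 5402 between the times (4905). For the difference between the bacteria, leaving out either array of a time gave the same values, and so did leaving out both at 1 h. Of the results on the 10 genes that were not called, 16 gained a call under at least 1 other setting, several only with median centring. Where a call was lost or gained, the cause was not tested. Slide as a block was not run, since slide and bacterium coincide. No paired analysis was possible because each bacterium and time has 1 array and no replicate number to pair by, although the time term of the fit sets the bacteria against each other within a time.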

Other observations

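Among tubulin genes, the other main filament system, 10 were measured. L. acidophilus gave 3 higher and 2 lower, B. clausii 6 higher and 2 lower. Over all 14805 genes, L. acidophilus gave 41.9% called (23.6% higher, 18.3% lower). For B. clausii that share was 44.3% (23.2% higher, 21.2% lower). Tuba1c, an alpha-tubulin gene, led with 0.71 ± 0.04 with L. acidophilus (limma adjusted p = 3.74e-05) and 0.66 ± 0.04 with B. clausii (adjusted p = 1.35e-05), while Tuba1a was lower at -0.15 and -0.37. Tubulin genes are closely alike in sequence, and cross-hybridisation was not tested. No tubulin gene differed between the bacteria or the times. Later times were higher than earlier ones for 4 of 9 Arp2/3 subunits, and 12% of all genes were higher late. Arpc2 (0.43 ± 0.06, limma adjusted p = 0.002) and Arpc5 (0.38 ± 0.06, adjusted p = 0.00332) led. Calls between the times over all probes fell from 4905 to 1502 without both 1 h arrays and to 1491 with processed signals. The Arp2/3 subunits were not counted under those settings.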
